A study of Mus musculus with 7 samples.

Results

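The mitochondrially encoded RNAs are the transcripts of the mitochondrion's own small circular genome, the source of 13 mRNAs, 2 rRNAs and 22 tRNAs. They were chosen by name, as every row whose gene symbol starts with mt-, which gave 37 of the 47729 genes listed. Expression had been measured by RNA sequencing of surface ectoderm, the outer epithelium of the embryo, from mouse heads at stage E12.5. The tissue between eye and brain was cut from frozen sections with a laser, and each library came from 3 pooled embryos. There were 3 wild type libraries, replicates 2, 3 and 4, and 4 miR-205 knockout libraries, replicates 1 to 4, which lack a microRNA of stratified epithelia. The labels do not describe the deleted allele or the strain, and wild type replicate 1, which the submitters removed for captured other tissue, was not analysed here. The labels name separate samples, so p-values measure the spread between these pools.

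Each library held between 8903523 and 12504790 reads assigned to a gene, as recovered from the deposited values. All 12 surface ectoderm markers examined were detected, but so were the markers of 7 other cell types, and no marker was at 0 in every library. Summed over their list, ectoderm markers ranged from 34181 to 44000 normalized counts in wild type and from 24178 to 39168 in knockout. Erythroid markers, 10 genes with globins among them, ranged from 195262 to 771026 in wild type and from 163400 to 406088 in knockout, more in sum than the ectoderm markers in every library.

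Mitochondrial DNA is transcribed from both strands into long RNAs, which are cut mostly at the tRNAs that lie between the other genes. The mRNAs encode subunits of respiratory complexes I, III and IV and of ATP synthase, the machines that turn the oxidation of nutrients into ATP, while the rRNAs form the core of the mitochondrial ribosome that translates those mRNAs. Everything else that the organelle needs, including the remaining respiratory subunits and all factors of mitochondrial transcription, is encoded in the nucleus. Copies of mitochondrial DNA have also been inserted into nuclear chromosomes, where they lie as pseudogenes.

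Those nuclear copies set apart a group of the mRNAs. GENCODE M21, the annotation of genome build GRCm38, lists a row of pseudogenes on the minus strand of chromosome 1. They repeat stretches of the mitochondrial sequence, from within mt-Co1 to within mt-Nd4, nearly base for base. The start of mt-Nd3, a complex I subunit, and of its copy Gm28438 show the only difference over the 345 bases compared, in capitals: T3C, with the mitochondrial base first and positions counted from the first base of mt-Nd3. The starts of mt-Co3, a complex IV subunit, and of its copy Gm28437 are shown because all 783 bases of this pair are the same.

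mt-Nd3, chrM:9459-9518, plus strand: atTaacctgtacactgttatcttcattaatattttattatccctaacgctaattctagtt
Gm28438, chr1:24613060-24613119, minus strand: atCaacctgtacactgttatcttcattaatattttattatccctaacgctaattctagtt
mt-Co3, chrM:8607-8666, plus strand: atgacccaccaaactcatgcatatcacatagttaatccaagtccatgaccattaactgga
Gm28437, chr1:24613912-24613971, minus strand: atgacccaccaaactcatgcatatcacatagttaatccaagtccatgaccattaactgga

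Every 100-base window of each mitochondrial gene, the length of a read, was looked up in all annotated nuclear transcripts; unannotated copies were not searched. An exact match was found for 99.9% of the windows of mt-Co3, 99.5% of those of mt-Co2 and of mt-Atp6, 98.5% of those of mt-Nd4l and 97.6% of those of mt-Nd3. The share was 60.8% for mt-Nd4, 30.8% for mt-Co1 and 3.19% for mt-Nd2. It was 0 for both rRNAs and for mt-Nd1, mt-Atp8, mt-Nd5, mt-Nd6 and mt-Cytb. Most of mt-Atp8 lies between the stretches matched by the copies of mt-Co2 and mt-Atp6, where an unannotated copy would have been missed. The level of mt-Atp8 is to be read with that limit. A read from a shared window cannot be placed by its sequence alone.

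The 5 mRNAs with at least 97% shared windows were the 5 lowest per length. On the scale of mean normalized count per kb of gene over the 7 libraries, mt-Atp6 had a level of 738 ± 99.9 (SD, n = 7), mt-Co2 of 269 ± 57.4, mt-Nd3 of 119 ± 40.8, mt-Co3 of 26.0 ± 4.52 and mt-Nd4l of 6.03 ± 4.21. The next gene above them, mt-Nd5, had a level of 4907 ± 373 per kb, and its lowest library lay above the highest library of mt-Atp6. Counts of the pseudogenes were low as well. Gm28437 held between 4.38 and 13.8 normalized counts per library, beside 14.9 to 24.8 for mt-Co3. Gm28661, the copy of mt-Co2, held between 1.77 and 6.10, beside 125 to 242 for mt-Co2. The levels of mt-Atp6, mt-Co2, mt-Nd3, mt-Co3 and mt-Nd4l are therefore uncertain, and those of mt-Nd4 and mt-Co1 in part. What the shared sequence contributed to the low levels was not tested, since the labels do not state how reads with several placements were handled.

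**Figure D1:**
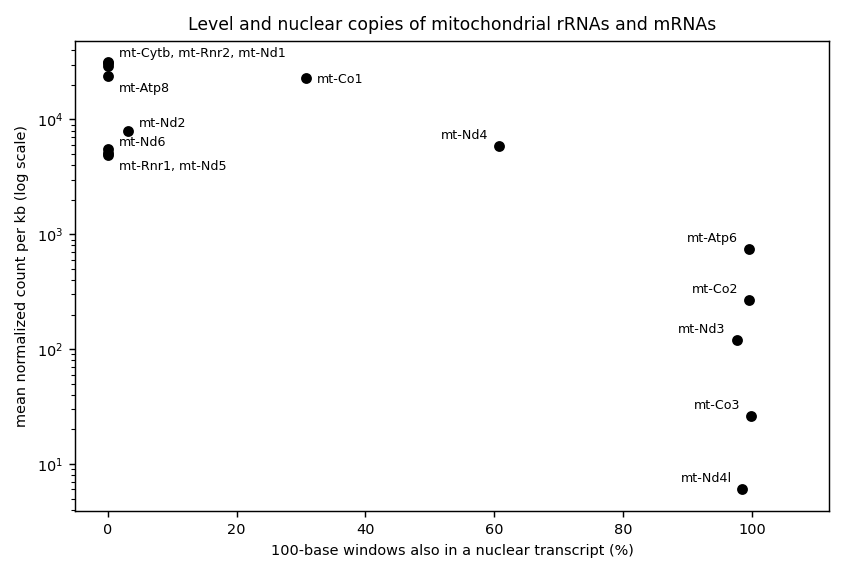
Percent of 100-base windows found exactly in a nuclear transcript (x) against mean normalized count per kb over 7 libraries (y, log scale), 1 point per mitochondrial rRNA or mRNA. The 5 mRNAs at 97.6% to 99.9% lie at or below 738 per kb, and the other genes at 4907 per kb or more.

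The pair of ATP synthase mRNAs shows the contrast between neighbours. The reading frames of mt-Atp8 and mt-Atp6 overlap on the same strand, and the 43 bases that belong to both are in capitals.

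mt-Atp8 and mt-Atp6 junction, chrM:7915-7981, plus strand: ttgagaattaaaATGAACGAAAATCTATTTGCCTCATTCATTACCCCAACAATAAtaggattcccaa

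Both subunits are read from a shared mRNA, a textbook property of this gene pair, yet mt-Atp8 held at least 7.89 times the normalized count of mt-Atp6 in each of the 7 libraries. A read that covers only those 43 bases fits both genes, and intersection-strict counting assigns it to neither.

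Among the other genes, the order of the levels per kb ran from mt-Cytb, the cytochrome b of complex III, at 31615 ± 3510 (SD, n = 7), through mt-Rnr2 at 31283 ± 8371, mt-Nd1 at 29509 ± 3167, mt-Atp8 at 23950 ± 3330 and mt-Co1 at 23032 ± 2930, to mt-Nd2 at 7925 ± 827. The ranges of the neighbours from mt-Cytb to mt-Co1 overlapped, although mt-Nd1 lay above mt-Atp8 within each of the 7 libraries on this scale. The scale divides by full gene length, although reads that reach past a gene's end are not counted. A 100-base read fits at 105 positions within mt-Atp8, against 858 within mt-Nd1 and 1045 within mt-Cytb. Levels of short genes are thus understated more, and the order of neighbours such as mt-Atp8 and mt-Nd1 depends on the scale. Every library of mt-Co1 lay above every library of mt-Nd2. A lower group followed, with mt-Nd4 at 5882 ± 766 per kb, mt-Nd6 at 5490 ± 922, mt-Rnr1 at 5067 ± 1914 and mt-Nd5, all with overlapping ranges. The 2 rRNAs, which lie next to each other on chrM from 70 to 1024 and from 1094 to 2675, thus differed in level per kb by more than their libraries did. Among the 15029 genes that averaged 10 or more normalized counts, not adjusted for length, mt-Rnr2 ranked 4, mt-Cytb 10, mt-Co1 11 and mt-Nd1 15.

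No tRNA had a read in any library. The 22 tRNA genes, 14 on the plus and 8 on the minus strand, are 59 to 75 bases long, all shorter than a 100-base read. The longest, mt-Tl1, a leucine tRNA between mt-Rnr2 and mt-Nd1, is shown because even it could not hold such a read.

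mt-Tl1, chrM:2676-2750, plus strand: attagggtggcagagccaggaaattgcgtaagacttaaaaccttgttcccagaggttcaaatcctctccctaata

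A count of 0 among the 165595 to 238567 mitochondrial reads per library allows a share of up to 0.00126% to 0.00181% of those reads, for counting error only. Reads that reach past a gene's end are not assigned under intersection-strict counting, so the 0 says nothing of how much tRNA the tissue held. For mt-Tf, mt-Tv, mt-Tl1, mt-Ti and mt-Tq, as for the other tRNAs, no fold was computed.

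The comparison of knockout with wild type took in the 15029 genes that averaged 10 or more normalized counts. Of the 37 members 14 passed that filter: 12 of 13 mRNAs, both rRNAs and 0 of 22 tRNAs. By limma-trend with Benjamini-Hochberg adjustment at a threshold of 0.1, no gene of the 15029 was called (0% of them) and so no mitochondrial RNA; the smallest adjusted p of any gene was 0.127. At an unadjusted p under 0.05, limma-trend counted 1469 genes, and edgeR's quasi-likelihood test, which called 0 genes as well, 1418. DESeq2 on the recovered reads called 223 of 14712 genes with an adjusted p (1.52%), 113 of them lower in knockout (0.768%). Its calls included 2 mitochondrial RNAs, mt-Rnr1 and mt-Rnr2, both lower, and no mitochondrial mRNA. Of 11933 genes in the authors' deposited table with an adjusted p, 338 (2.83%) had one under 0.1, 167 of them lower in knockout (1.40%), and the same pair were the only ones of 12 mitochondrial RNAs with such a p.

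The rRNAs were lower in every knockout library than in any wild type library, a separation found for 5.22% of all tested genes and, among the members, for these and mt-Nd2. The opposite separation, found for 4.70% of tested genes, occurred in 0 of the 14 members. mt-Rnr2, the 16S rRNA of the large ribosomal subunit, had 58998, 53028 and 73349 normalized counts in wild type replicates 2, 3 and 4 against 41766, 44516, 38510 and 36259 in knockout replicates 1 to 4. Wild type replicate 4 was the highest, and the knockout libraries lay close together. The means were 61792 ± 10445 (SD, n = 3) and 40263 ± 3626 (SD, n = 4), a log2 difference of -0.61 (SE 0.11), and limma-trend gave an adjusted p of 0.312. DESeq2 gave mt-Rnr2 a log2 difference of -0.62 and an adjusted p of 7.11e-05, and the authors' deposited table lists -0.61 with 0.000243.

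mt-Rnr1, the 12S rRNA of the small subunit, had 5168, 5253 and 8594 normalized counts in wild type against 4059, 4027, 3678 and 3091 in knockout. Wild type replicate 4 stood above the other 2 wild type libraries, which were near each other. The means were 6338 ± 1954 (SD, n = 3) and 3714 ± 449 (SD, n = 4), a log2 difference of -0.74 (SE 0.19), and limma-trend gave an adjusted p of 0.361. DESeq2 gave mt-Rnr1 -0.77 with an adjusted p of 0.00278, and the authors' deposited table lists -0.74 with 0.00615. Without wild type replicate 4 the log2 difference was -0.50 for mt-Rnr1 and -0.48 for mt-Rnr2. Over all settings the adjusted p ranged from 0.00278 to 0.754 for mt-Rnr1 and from 7.11e-05 to 0.571 for mt-Rnr2, so the pair was called by DESeq2 and in the authors' table and by neither limma-trend nor edgeR.

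**Figure D2:**
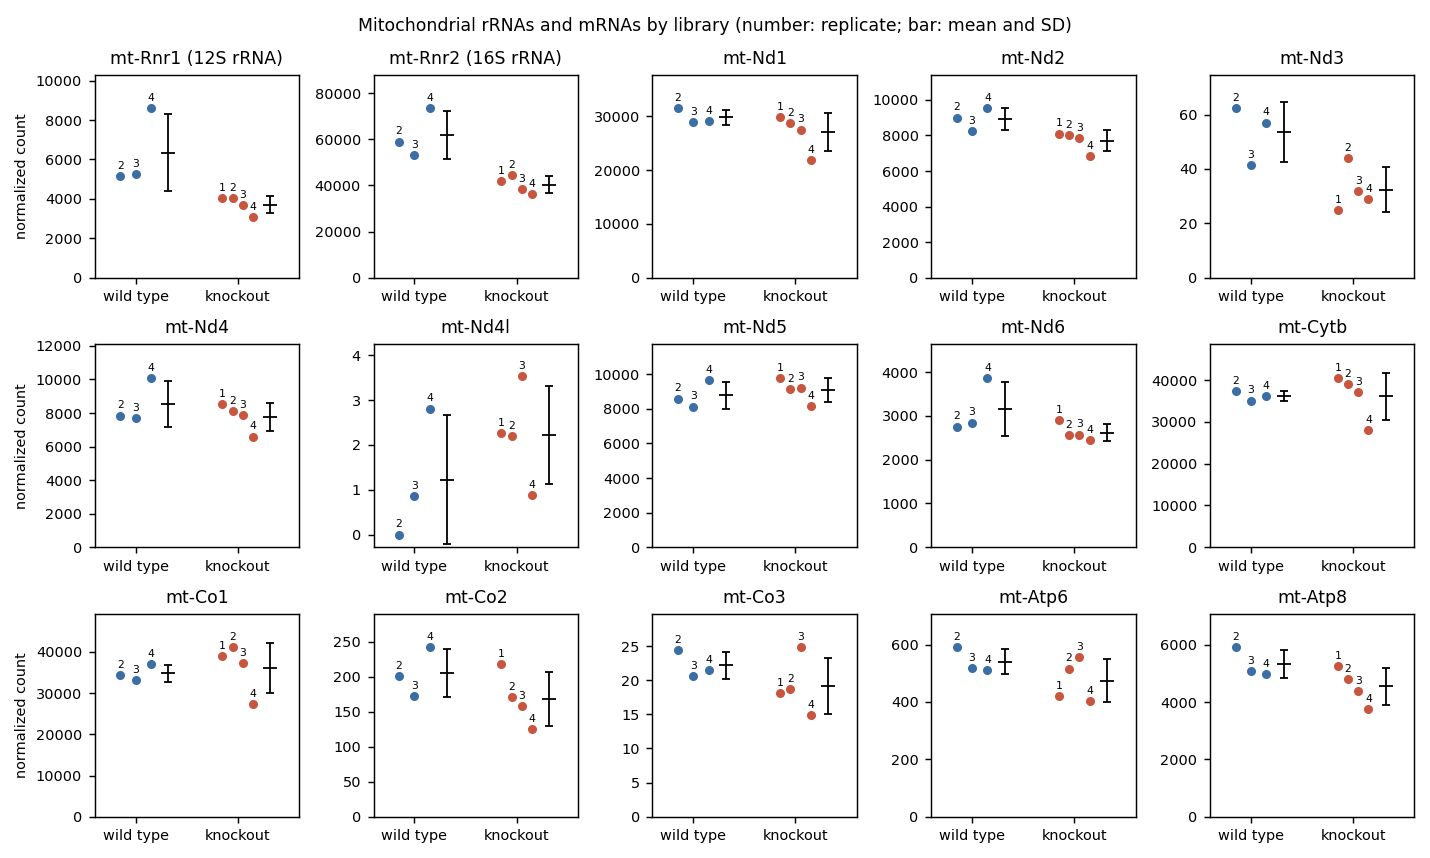
Normalized counts (y, linear) of the 2 rRNAs and 13 mRNAs in the 3 wild type (blue) and 4 knockout (red) libraries, each point a library with its replicate number, with mean and SD beside them. For mt-Rnr1, mt-Rnr2 and mt-Nd2 all knockout points lie below all wild type points, and knockout replicate 4 is the lowest library in 12 of the 14 tested genes.

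Among complex I mRNAs, which encode subunits of NADH dehydrogenase, mt-Nd2 came nearest to the rRNAs. It had 9006, 8245 and 9521 normalized counts in wild type against 8106, 8008, 7869 and 6829 in knockout. The groups did not overlap, but the gap between wild type replicate 3 and knockout replicate 1 was small. The log2 difference of mt-Nd2 was -0.21 (SE 0.08), and limma-trend gave it an unadjusted p of 0.0191 and 0.448 after adjustment. With mt-Rnr1 and mt-Rnr2 it made 3 of 14 members lower at an unadjusted p under 0.05, against 652 of all tested genes (4.34%).

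mt-Nd1 had 31493, 28929 and 29126 normalized counts in wild type against 29936, 28701, 27562 and 21936 in knockout. The groups overlapped, with knockout replicate 4 apart and low, and the log2 difference was -0.15 (SE 0.10, adjusted p 0.623) and -0.055 without that library. mt-Nd5 had 8587, 8125 and 9650 in wild type against 9788, 9128, 9229 and 8139 in knockout, with a log2 difference of 0.05 (SE 0.08, adjusted p 0.864 by limma-trend). This is a gene whose knockout mean was the higher one, 9071 ± 686 (SD, n = 4) against 8788 ± 782 (SD, n = 3), within the spread of the libraries.

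mt-Nd4 averaged 8540 ± 1348 normalized counts in wild type (SD, n = 3) against 7780 ± 829 in knockout (SD, n = 4), a log2 difference of -0.13 (SE 0.11) that was -0.003 without wild type replicate 4 and -0.053 without knockout replicate 4. mt-Nd3 had 62.3, 41.3 and 57.1 normalized counts in wild type against 24.8, 44.0, 31.8 and 28.9 in knockout, with a log2 difference of -0.72 (SE 0.35, adjusted p 0.535 by limma-trend). Its knockout replicate 2 lay above wild type replicate 3, and its sequence is shared with Gm28438, as shown above. mt-Nd4l, at 0 to 3.54 normalized counts, was too low to be tested.

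mt-Nd6 is the only mRNA on the minus strand of the mitochondrial genome and comes from a separate promoter. It had 2755, 2847 and 3867 normalized counts in wild type against 2901, 2562, 2570 and 2443 in knockout. Knockout replicate 1 lay above 2 of the wild type libraries, and wild type replicate 4 was the highest. The log2 difference of mt-Nd6 was -0.25 (SE 0.12, adjusted p 0.516 by limma-trend) and was -0.10 without wild type replicate 4. mt-Nd6 and mt-Nd5 overlap by 14 bases on opposite strands, and whether strand was used in counting is not stated in the labels, so antisense reads over mt-Nd6 cannot be told apart from its own.

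The cytochrome mRNAs, which encode cytochrome b of complex III and the cytochrome c oxidase subunits of complex IV, did not separate the groups. mt-Cytb had 37394, 35104 and 36085 normalized counts in wild type against 40508, 38980, 37086 and 28013 in knockout, a log2 difference of -0.016 (SE 0.12, adjusted p 0.976 by limma-trend). Its knockout libraries held both the highest and the lowest value. mt-Co1, the catalytic subunit of complex IV, had 34290, 33141 and 37060 in wild type against 38959, 41083, 37263 and 27294 in knockout, a log2 difference of 0.04 (SE 0.13, adjusted p 0.938). In mt-Co1 knockout replicates 1, 2 and 3 lay above every wild type library, in mt-Cytb replicates 1 and 2 did, and in both genes replicate 4 lay below every one. Without knockout replicate 4 the log2 difference was 0.10 for mt-Cytb and 0.17 for mt-Co1.

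The remaining mRNAs, with their uncertain levels, gave smaller knockout means that overlapped with wild type. mt-Co2 had 201, 173 and 242 normalized counts in wild type against 218, 171, 158 and 125 in knockout, a log2 difference of -0.30 (SE 0.22, adjusted p 0.661 by limma-trend). mt-Co3 had 22.2 ± 1.98 and 19.1 ± 4.12, a log2 difference of -0.23 (SE 0.42), and mt-Atp6 had 540 ± 42.9 and 474 ± 74.2, a log2 difference of -0.20 (SE 0.14). mt-Atp8, which has no shared window with an annotated nuclear transcript, had 5905, 5088 and 4986 normalized counts in wild type. Its knockout libraries had 5266, 4810, 4393 and 3752, a log2 difference of -0.23 (SE 0.11, adjusted p 0.537 by limma-trend). Its knockout replicate 1 lay above 2 wild type libraries. Without knockout replicate 4 the log2 difference was -0.17 for mt-Co2, -0.12 for mt-Co3, -0.13 for mt-Atp6 and -0.14 for mt-Atp8. Without wild type replicate 4 mt-Co2 was at -0.18, and without wild type replicate 2 mt-Atp6 was at -0.13.

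Counted by direction alone, 12 of the 14 tested members and 10 of the 12 tested mRNAs had a lower mean log2 value in knockout, against 48.3% of all tested genes. The members share their libraries and their long precursor RNAs, so they are not independent counts. The median log2 difference was -0.21 over the mRNAs and -0.22 over all 14 members, against 0.01 over the 15029 tested genes. Knockout replicate 4, the lowest of the 7 libraries in 12 of 14 members, moves these medians: without it, the median over the 14 members was -0.13, and 11 of 14 were lower.

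**Figure D3:**
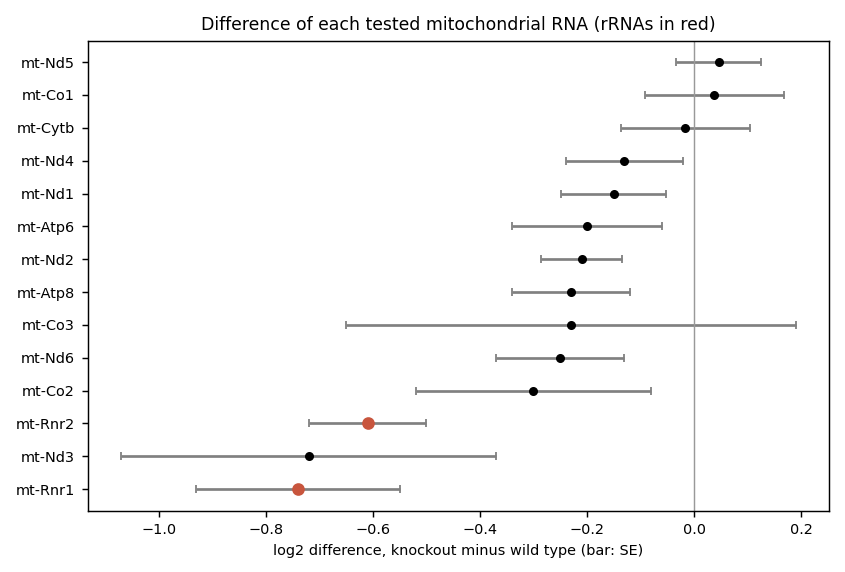
Log2 difference of knockout minus wild type (x) for the 14 tested mitochondrial RNAs, with bars of 1 SE from limma-trend and the rRNAs in red. mt-Rnr1 at -0.74 and mt-Rnr2 at -0.61 lie farthest left together with mt-Nd3, whose bar is wide, and mt-Co1 and mt-Nd5 lie just above 0.

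As a share of the reads assigned to genes, the mitochondrial RNAs took 1.85%, 1.75% and 2.11% in wild type against 1.90%, 1.84%, 1.69% and 1.41% in knockout. These shares overlapped, with an exact two-sided permutation p of 0.286, where 0.0571 is the smallest that 3 against 4 libraries allow. The 95% Wilson interval of each share was at most 0.00896 percentage points to either side, so the spread between libraries, not the depth, limited this comparison. The mRNA share was 1.27% ± 0.0647 in wild type (SD, n = 3) against 1.28% ± 0.179 in knockout (SD, n = 4), with an exact permutation p of 0.914. The rRNA share was 0.588%, 0.542% and 0.776% in wild type against 0.456%, 0.468%, 0.402% and 0.384% in knockout, without overlap and with an exact permutation p of 0.0571. In bulk tissue, fewer mitochondria-rich cells and less mitochondrial RNA per cell cannot be told apart.

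Relative to the mRNAs of the same organelle the rRNAs were lower as well. The log2 ratio of summed rRNA to summed mRNA counts was -1.11, -1.16 and -0.79 in wild type against -1.66, -1.55, -1.67 and -1.42 in knockout. All knockout ratios lay below all wild type ratios, by -0.56 on average (exact permutation p 0.0571, two-sided). The difference was -0.58 within the 4 libraries over 10000000 reads. Within the 3 libraries under that depth, where wild type replicate 2 was the only wild type library, the difference was -0.50. It was -0.45 without wild type replicate 4, and -0.63 to -0.44 over all settings. Of the mitochondrial reads themselves, the rRNAs took 33.1% ± 3.13 in wild type (SD, n = 3) against 25.1% ± 1.52 in knockout (SD, n = 4). The shares of mt-Co1, mt-Cytb and mt-Nd5 among mitochondrial reads were higher in every knockout library than in any wild type library, with mt-Co1 at 16.6% to 17.6% in wild type against 18.8% to 21.5% in knockout. Those of other mRNAs moved less, with means of 14.7% and 15.4% for mt-Nd1, 2.62% and 2.59% for mt-Atp8 and 1.54% and 1.50% for mt-Nd6, and mt-Nd2 ranged from 4.27% to 4.45% in wild type and from 4.20% to 4.71% in knockout. Such shares sum to a fixed total, so they show unequal change among the members and no direction of their own.

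Ratios between other members overlapped between the groups. The log2 ratio of mt-Rnr1 to mt-Rnr2 was -3.31 ± 0.21 in wild type (SD, n = 3) against -3.44 ± 0.085 in knockout (SD, n = 4), with an exact permutation p of 0.343. That of mt-Nd6 to the 12 mRNAs of the other strand was -5.42 ± 0.24 and -5.62 ± 0.16, with an exact permutation p of 0.343. Without wild type replicate 4 these 2 differences went from -0.13 to -0.018 and from -0.20 to -0.066. The mean log2 level of complex I minus complex IV mRNAs was 1.04 ± 0.16 and 1.12 ± 0.088 (exact permutation p 0.457). That last difference was 0.081, and it was 0.002 without wild type replicate 2. It was -0.14 when mt-Co2, mt-Co3, mt-Nd3, mt-Nd4 and mt-Nd4l, with most of their windows in nuclear transcripts, were left out. That left mt-Co1, at 30.8% shared windows, alone for complex IV. The direction of the difference thus depends on the genes taken.

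Some rows outside the mitochondrial genome, an 18S-related one among them, were lower in knockout as the mitochondrial rRNAs were. Rn18s-rs5, annotated in the table as related to the 18S RNA, had 72344, 85058 and 113844 normalized counts in wild type against 58671, 73365, 66463 and 58668 in knockout. Its groups overlapped, with a log2 difference of -0.47 (SE 0.16, adjusted p 0.446 by limma-trend) that was -0.29 without wild type replicate 4. RefSeq gives Gm42418 as another name of Rn18s-rs5, and Gm26917 is its neighbour on chromosome 17. Gm42418 had a log2 difference of -0.49 (SE 0.13) and Gm26917 of -0.48 (SE 0.07), both without overlap. Lars2, which encodes the mitochondrial leucyl-tRNA synthetase, shares no 25-base window with a mitochondrial gene. It had a log2 difference of -0.41 (SE 0.07), again without overlap. Its means of 94209 ± 7019 (SD, n = 3) in wild type and 70969 ± 5707 (SD, n = 4) in knockout lay above those of Rn18s-rs5. Whether the reads on Lars2 and Gm26917 come from ribosomal RNA was not tested. DESeq2 called all 4 of these rows, which were chosen after their values were seen.

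Set against Rn18s-rs5, the mitochondrial rRNAs no longer separated the groups. The log2 ratio was -0.17, -0.55 and -0.47 in wild type against -0.36, -0.60, -0.66 and -0.58 in knockout, a difference of -0.15 with an exact permutation p of 0.343. Without wild type replicate 2 that difference was -0.036. The log2 ratio of Rn18s-rs5 to the mitochondrial mRNAs was -0.62 ± 0.31 in wild type (SD, n = 3) against -1.03 ± 0.19 in knockout (SD, n = 4), with an exact permutation p of 0.114. The part of what lowered Rn18s-rs5 in the difference of mt-Rnr1 and mt-Rnr2 was not tested.

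**Figure D4:**
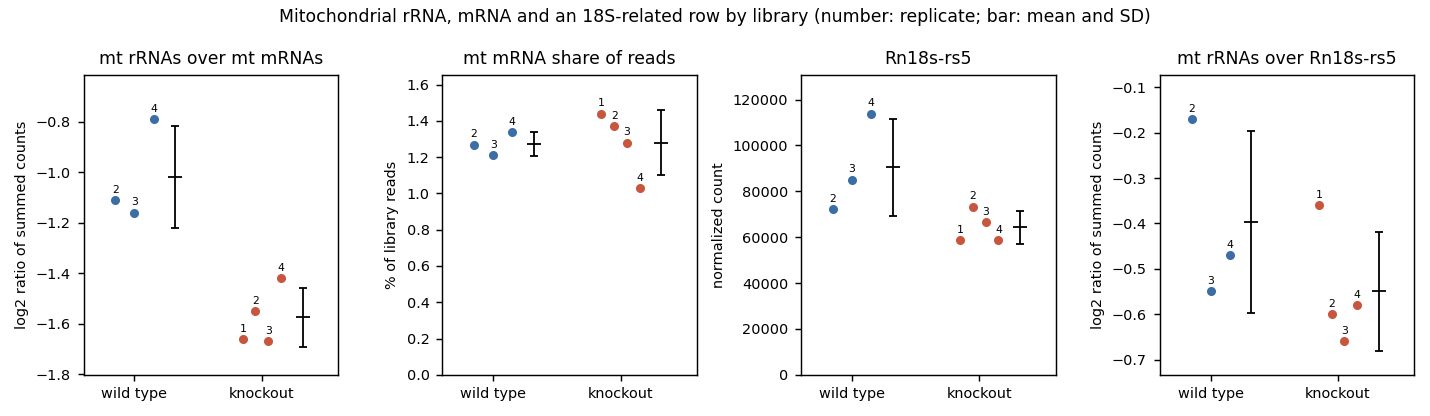
Per library, from left to right, the log2 ratio of mitochondrial rRNAs to mRNAs, the mRNA share of reads (%), the normalized count of Rn18s-rs5 and the log2 ratio of mitochondrial rRNAs to Rn18s-rs5, for wild type (blue) and knockout (red), numbered by replicate, with mean and SD. The groups are apart in the first panel (-1.16 to -0.79 against -1.67 to -1.42) and overlap in the other three.

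The A content of the 15 rRNA and mRNA genes was read from their sequences. The 20 bases richest in A held 16 A in mt-Rnr2 and 15 in mt-Rnr1, at most 14 in any mRNA (mt-Nd2 and mt-Atp8) and 8 in mt-Nd6. The longest unbroken run of A had another order, with 8 in mt-Nd2, 7 in mt-Rnr2, mt-Co1, mt-Nd4 and mt-Nd5, and 5 in mt-Rnr1. The 20-base stretches of the rRNAs and of mt-Nd6 are shown, with those A in capitals and 10 bases to either side, because the cDNA kit named in the labels primes on runs of A.

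mt-Rnr2, chrM:1478-1517, plus strand: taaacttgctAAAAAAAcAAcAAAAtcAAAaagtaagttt
mt-Rnr1, chrM:715-754, plus strand: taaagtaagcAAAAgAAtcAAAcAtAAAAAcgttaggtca
mt-Nd6, chrM:13820-13859, minus strand: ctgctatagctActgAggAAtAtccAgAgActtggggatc

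Whether reads began at such stretches was not tested, as the deposited table gives 1 value per gene.

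Nuclear genes of mitochondrial RNA metabolism and of the respiratory chain were examined beside the members, and limma-trend called none of them. In 9 lists of mitochondrial upkeep, 124 genes were tested, of which 48 had a higher and 76 a lower log2 value in knockout. At an unadjusted p under 0.05 by limma-trend, 1 was higher and 9 were lower. Over all tested genes, 48.3% had a lower value and 4.34% were lower at that p. The genes named from each list had its smallest p, a choice that favours groups without overlap. Of all tested genes, 5.22% lay wholly lower in knockout. Of 9 transcription genes 6 were lower, among them Tefm, the elongation factor, at -0.26 (SE 0.14) and Mterf3 at -0.28 (SE 0.15). Of 14 genes of mitochondrial DNA maintenance 8 were lower, with Mgme1, an exonuclease, at -0.41 (SE 0.14) and without overlap, and Ssbp1, the single-strand binding protein, at -0.23 (SE 0.10). Of 8 regulators of biogenesis 5 were lower, with Yy1 at -0.36 (SE 0.11) and Esrra at -0.37 (SE 0.18), both without overlap.

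Genes that act on mitochondrial transcripts went either way. Of the 4 genes that cut RNA at the tRNAs, 3 were lower: Trmt10c averaged 481 ± 30.5 normalized counts in wild type (SD, n = 3) against 391 ± 19.3 in knockout (SD, n = 4), at -0.30 (SE 0.11), and Hsd17b10 was at -0.12 (SE 0.08). Of 18 genes of mRNA stability and decay 8 were lower, with Slirp, a partner of the stabilising protein Lrpprc, at -0.29 (SE 0.08) and Fastkd2 at -0.28 (SE 0.12), both without overlap. Of 20 genes of rRNA modification and ribosome assembly 9 were lower, and those with the smallest p, Mettl15 at 0.45 (SE 0.28) and Mtg1 at 0.23 (SE 0.16), were higher. The list that acts on the rRNAs had a median log2 difference of 0.06.

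Of 18 genes of tRNA modification 10 were lower, with Qtrt1 at 0.21 (SE 0.14) and Osgepl1 at -0.25 (SE 0.18). Of 13 translation factors 11 were lower, with Tsfm, an elongation factor, at -0.27 (SE 0.13) and Guf1 at -0.39 (SE 0.19). Of 20 markers of mitochondrial content 16 were lower, with Hspe1, a chaperone, at -0.30 (SE 0.07) and without overlap. Hspe1 was the only gene of these 9 lists that DESeq2 called (adjusted p 0.0417), against 1.52% of all genes with an adjusted p.

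The nuclear subunits of the same respiratory complexes mostly had lower values in knockout, as the mitochondrial mRNAs did. Of 76 tested subunits 72 were lower, 41 of them at an unadjusted p under 0.05 by limma-trend (4.34% of all tested genes were lower at that p). The median log2 difference was -0.16. These subunits, like the genes of the lists above, were measured in the same libraries, so they are not independent counts. DESeq2 called 14 of the 76, against 1.52% of all genes with an adjusted p. Complexes were assigned from gene names alone. Lower were 35 of 37 genes named Nduf (complex I), 9 of 9 named Uqcr or Cyc1 (complex III), 13 of 15 named Cox (complex IV) and 15 of 15 named Atp5 (ATP synthase). Membership was not checked gene by gene. Among them Ndufa2 of complex I was at -0.28 (SE 0.07), Ndufc1 at -0.26 (SE 0.07), Uqcrb of complex III at -0.26 (SE 0.06) and Uqcr11 at -0.25 (SE 0.06). Cox6c of complex IV was at -0.36 (SE 0.08), Cox7b at -0.34 (SE 0.08), Atp5j2 of ATP synthase at -0.24 (SE 0.05) and Atp5e at -0.33 (SE 0.08).

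The mean log2 level of the mitochondrial mRNAs minus that of the nuclear subunits was -0.65, -0.73 and -0.50 in wild type against -0.53, -0.58, -0.56 and -0.87 in knockout. The groups overlapped, with a difference of -0.008 and an exact permutation p of 0.971, and knockout replicate 4 stood below all others.

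Markers of other cell types moved with genotype too. All 12 ectoderm markers and all 10 erythroid markers had a lower log2 value in knockout. All 10 neuron and neural progenitor markers, all 8 of endothelium and all 8 of macrophages had a higher one, as did 9 of 9 tested skeletal muscle markers, 7 of 10 mesenchyme markers and 6 of 8 of melanocytes and Schwann precursors. The neuron markers summed to 1701 to 6951 normalized counts in wild type against 6218 to 10926 in knockout, endothelium to 518 to 720 and 676 to 2112, and macrophages to 425 to 1169 and 893 to 1786. Mesenchyme markers summed to 15365 to 18052 and 16288 to 25923, skeletal muscle to 48.1 to 2253 and 138 to 11471, and melanocytes and Schwann precursors to 996 to 1507 and 1381 to 1883. Knockout replicates 1 and 2 carried part of this: without them the median log2 difference went from 1.97 to -0.42 over the muscle markers, from -0.32 to -0.057 over the ectoderm markers, from 0.86 to 0.35 over those of endothelium and from 0.24 to 0.023 over those of mesenchyme. Over the neuron markers it went from 1.38 to 1.08, over macrophages from 0.96 to 0.64, over melanocytes and Schwann precursors from 0.60 to 0.25 and over erythroid markers from -0.69 to -0.74. Without the same libraries the log2 difference was -0.87 for mt-Rnr1 and -0.71 for mt-Rnr2, with adjusted p of 0.754 and 0.544 by limma-trend. Since neuron, macrophage and erythroid markers still differed without those libraries, leaving them out is no test of cell type makeup. The part of cell type makeup in the mitochondrial values was not tested.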

How the data were processed

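Members and gene lists were chosen with earlier results of these data known. Per the submitters' processing notes, TopHat2 2.0.9, HTSeq and DESeq2 were used with build GRCm38, and the labels' protocols give 100-base paired-end reads. Counting in intersection-strict mode is per the series' design text. The deposited signal values are normalized counts: the authors scaled each library's reads by a size factor. The deposited log2 column is the authors' DESeq2 fold change, and the deposited p-value columns are theirs too.

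The smallest value above 0 in each library was taken as 1 read, which made 100% of values whole within 0.01 read. Differences were tested with limma-trend 3.58.1 in R 4.3.3, robust, on log2(normalized count + 1) over genes averaging 10 or more, and p-values were adjusted by Benjamini-Hochberg and called under 0.1. This scale understates changes of weakly expressed genes. Alternatives were edgeR 4.0.16 and DESeq2 1.42.0 on recovered reads, other pseudocounts, no filter, scaling by non-mitochondrial reads, depth, the replicate block, and libraries left out. The fits were tested on simulated data. Ratios and shares were compared by exact two-sided permutation over 35 splits. Every mt- mRNA and rRNA, 5 tRNAs, and the 2 genes of smallest p in each nuclear list were named, except 1 that is not reported here. Sequences and positions are GENCODE M21's. Wilson intervals and limits of 3 counts cover counting error only.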

Additional observations from a re-analysis of the deposited data

Results flagged for a closer look

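The mean log2 level of the mitochondrial mRNAs minus that of the nuclear respiratory subunits was -0.870 in knockout replicate 4, far below the other 3 knockout libraries, which lay between -0.58 and -0.53. Of 25 measures examined over the 4 knockout libraries it alone had such a gap, and chance gives about 1 in 20 groups one.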

How the results depend on the processing

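Of 353 values recomputed under other settings, 338 kept their direction and their side of the threshold or stayed within the replicate spread. DESeq2 called 2 mitochondrial RNAs in place of 0, mt-Rnr1 at -0.77 and mt-Rnr2 at -0.62. Directions near 0 turned: mt-Cytb was 0.043 when scaled by reads outside the mitochondrial genome, and without knockout replicates 1 and 2, an alternative chosen after seeing the data, mt-Co1 was -0.13 and mt-Nd5 -0.016. Leaving out 1 library at a time gave -0.075 to 0.10 for mt-Cytb, -0.029 to 0.17 for mt-Co1 and -0.008 to 0.12 for mt-Nd5. Within libraries under 10000000 reads the mitochondrial share differed by 0.0140 percentage points and the mt-Rnr1 to mt-Rnr2 log2 ratio by 0.098. Wild type replicate 2 was the only wild type library under that depth. The complex I to complex IV difference was -0.14 over the mRNAs with few shared windows, also chosen after seeing the data. The cause of these changes was not tested.

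Replicate numbers did not pair the samples: deviations of same-numbered libraries correlated at 0.111, 0.108 and -0.02. The replicate block was fitted only on replicates 2, 3 and 4, so knockout replicate 1 was left out. With the block 0 mitochondrial RNAs and 3 genes in all were called. Without the block the counts were 0 and 2 in the same libraries, and 0 and 0 in all 7. In those same libraries mt-Co1 was -0.004, mt-Rnr1 -0.78, mt-Rnr2 -0.63 and the rRNA to mRNA log2 ratio differed by -0.53, with or without the block. Calls by limma-trend numbered 84 when wild type replicate 2 was left out and 6 when knockout replicate 2 was, in each case 0 of them mitochondrial. Reads limit mt-Nd4l, mt-Co3 and mt-Nd3, the lowest members.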
